A study of Saccharomyces cerevisiae with 12 samples.

Results

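RNA polymerase II (Pol II) over the genes of budding yeast was compared between 2 mutant forms of Pcf11. The comparison set the 2 Pol II libraries of the strain titled Pcf11-DNL against the 2 Pol II libraries of the strain titled Pcf11-13, over all genes, so that 4 of the 12 libraries of the study carried it. The 2 Pol II libraries of the WT strain entered the fit to share its estimate of spread, and the 6 input libraries of unprecipitated DNA were used to measure gene dosage. All strains were of the W303 background and MAT alpha, with his3-11,15, ade2-1, ura3-1, trp1-delta and a leu2 allele whose number the labels write differently for Pcf11-DNL. In each of them the chromosomal PCF11 gene was replaced by TRP1 (pcf11-delta::TRP1), and PCF11 was supplied from a pRS325-LEU2 plasmid. That plasmid carried V5-PCF11-MYC in WT, pcf11-13 with no tag named in Pcf11-13, and V5-pcf11-deltaN-linkMYC in Pcf11-DNL. The tags named therefore differed together with the alleles. Glucose is listed as the treatment of every sample. The series text calls the other allele Pcf11-dQN where the sample titles have Pcf11-DNL. Cells were fixed with formaldehyde, and chromatin was precipitated with 4H8, a mouse monoclonal antibody against the C-terminal domain (CTD) of the largest Pol II subunit. The submitters describe the 2 libraries of a strain as biological replicates.

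Pcf11 is an essential subunit of cleavage factor IA, which recognises the ends of messenger RNA precursors with Rna14, Rna15 and Clp1 and helps the polymerase to stop after cleavage. It binds the phosphorylated CTD through a domain at its N terminus. Genes for small nucleolar RNAs (snoRNAs) end their transcripts in another way, through Nrd1, Nab3 and the helicase Sen1, and Pcf11 is known to take part there as well. The same pathway stops transcription early at several protein genes, among them NRD1, URA2, IMD2 and PCF11 itself, an arrangement known as attenuation. Genes that neighbour snoRNA genes, attenuated genes and genes lying after other genes are therefore the places where strains with different Pcf11 alleles can be compared.

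The values are read coverage per gene, scaled between libraries as described under the processing of the data. Before scaling, the average gene had a Pol II coverage of 185.9 in Pcf11-13 replicate 1 and 300.7 in replicate 2, while Pcf11-DNL replicate 1 had 158.2 and replicate 2 had 206.8. The 2 Pcf11-13 libraries lay close together, with 0.0903% of genes differing by more than 1.5-fold between them. The share was 3.58% in Pcf11-DNL and 7.68% in WT. Pcf11-DNL replicate 2 and WT replicate 1 covered a narrower range, with an SD over genes of 0.92 and 0.93 on the log2 scale, against 1.08 to 1.19 in the other 4 Pol II libraries. The mating type on the labels was borne out by its defining genes. The alpha-factor gene MF(ALPHA)1 stood at 13.5 to 20.7 times the median gene in the 6 Pol II libraries, and the a-factor gene MFA1 at 0.092 to 0.277 times the median gene.

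Of 6642 genes tested, 11 differed between the mutants at an adjusted p under 0.05, which is 0.166% of them. Pol II was higher in Pcf11-DNL over 4 genes (0.0602%), namely SPS4, TOA2, HXT1 and YDR269C. It was lower over 7 genes (0.105%), namely PCF11, PAM16, YMR194C-A, HIS4, VMA9, YKL102C and MIN3. At an unadjusted p under 0.05 there were 731 genes (11%), of which 225 were higher (3.39%) and 506 lower (7.62%). The coverage of the libraries of one mutant lay wholly above or wholly below that of the other at 3705 genes (55.8%), with 1930 higher (29.1%) and 1775 lower (26.7%) in Pcf11-DNL. The mean of Pcf11-DNL lay between those of WT and Pcf11-13 at 8 of the 11 called genes, against 37.9% of all genes tested. The 11 genes were chosen by a contrast that shares Pcf11-13 with this position, so the count is a description.

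**Figure D1:**
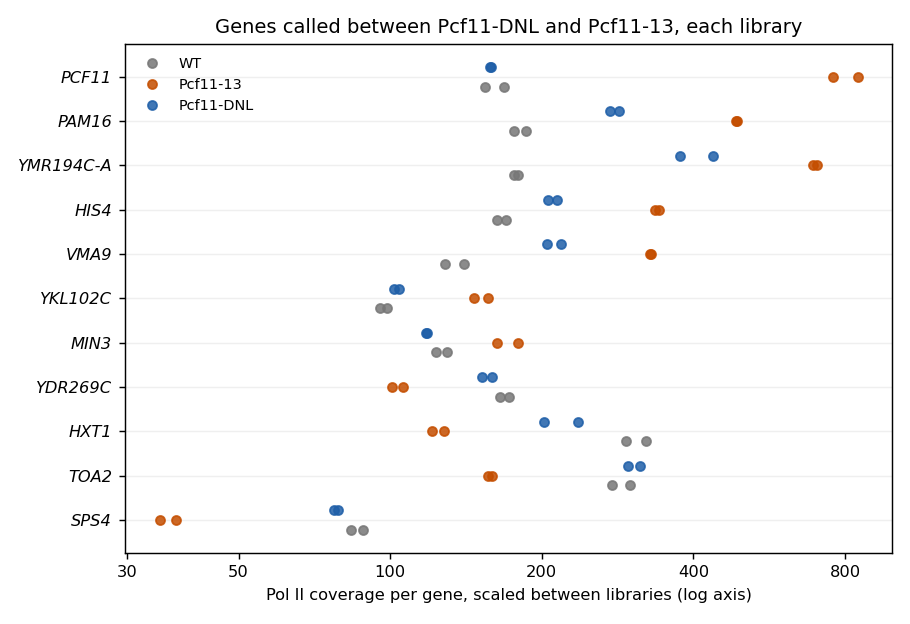
Scaled Pol II coverage of the 11 genes called between Pcf11-DNL and Pcf11-13, on a log axis. Each point is 1 library, coloured by strain, and at each gene the 2 Pcf11-DNL points stand apart from the 2 Pcf11-13 points.

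The number of calls rested on which libraries set the spread. When the WT libraries were left out and the 4 mutant libraries fitted alone, 703 of 6640 genes passed (10.6%), with 159 higher (2.39%) and 544 lower (8.19%) in Pcf11-DNL, and the 11 genes were among them. In that limma fit the adjusted p was 1.6e-112 at PCF11, 1.6e-16 at FRE1 and 2.3e-10 at PHO11. The Pcf11-DNL libraries lay far from one another at FRE1 (744.2 and 380.3) and PHO11 (227.3 and 143.0). The fit thus gave little weight to the spread of a gene's own replicates, and its counts for gene lists below are descriptions. Without either Pcf11-13 library, PCF11 alone passed. Scaling by library totals gave 20 higher and 99 lower, and scaling on meiosis and sporulation genes gave 30 higher and 1 lower while shifting the median of all genes by -0.33 on the log2 scale.

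PCF11 (YDR228C, chromosome IV, 921926 to 923806 in sacCer3, minus strand) differed most among the called genes. This is its reference position, while the labels place the PCF11 of these strains on a plasmid. Its scaled Pol II coverage was 758.9 and 847.3 in Pcf11-13 against 157.9 and 158.3 in Pcf11-DNL, with 154.3 and 168.4 in WT. The Pcf11-13 libraries thus stood alone, and those of Pcf11-DNL lay within the range of WT. The difference was -2.34 on the log2 scale (SE 0.10, 95% interval -2.55 to -2.12, adjusted p = 1.9e-05), so that Pcf11-13 had 5.05-fold more Pol II coverage over the gene. Coverage was read against the reference PCF11, and the stretch that the deltaN allele lacks is not given in the labels. The part of a missing stretch in the Pol II value was not tested beyond the input coverage of the gene, which is given next.

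The dosage of PCF11 differed between the mutants as well. Input coverage over PCF11 was 331.9 and 315.9 in Pcf11-13 against 217.2 and 219.2 in Pcf11-DNL, with 214.7 and 225.4 in WT. Relative to the median gene, this was 2.24 and 2.14 in Pcf11-13, 1.47 and 1.49 in Pcf11-DNL, and 1.45 and 1.53 in WT. The input difference was -0.57 (SE 0.03, adjusted p = 2.0e-04). With it taken off, the Pol II difference was -1.77 (SE 0.10, adjusted p = 1.3e-04). IVY1 and SIR4, which flank PCF11 in the reference, were at 0.02 and 0.04 in Pol II. They do not flank the plasmid copy, so they are no local contrast to it. The other subunits of cleavage factor I were not called: RNA14 was at -0.01, RNA15 at 0.06, CLP1 at 0.16 and HRP1, whose product binds the efficiency element of the 3' end, at -0.31. Of 15 cleavage and polyadenylation factor genes 0 were called, with a median of 0.09 and a range from -0.32 to 0.27.

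PAM16, which encodes a subunit of the motor that draws proteins into mitochondria, ends towards a snoRNA gene. It lies on chromosome X (YJL104W, 227327 to 227776, plus strand), and the end of SNR37, on the opposite strand, is 317 bp away. Its coverage was 488.0 and 487.1 in Pcf11-13, 273.8 and 284.8 in Pcf11-DNL, and 176.0 and 186.4 in WT. The 3 strains did not overlap, and Pcf11-DNL lay between the others. The difference between the mutants was -0.80 (SE 0.09, 95% interval -1 to -0.60, adjusted p = 0.017), or 1.74-fold more in Pcf11-13. Input differed by 0.04 and was not called, and the difference less input was -0.84 (adjusted p = 0.0034). SET4, before PAM16, was at -0.05, and GSM1, after it, at 0.17.

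VMA9, which codes for part of the proton pump of the vacuole, on chromosome III (YCL005W-A, 107023 to 107417, plus strand), is placed in the same way, with the end of SNR43 86 bp away on the opposite strand. Coverage was 328.0 and 329.0 in Pcf11-13, 205.2 and 218.2 in Pcf11-DNL, and 128.5 and 139.9 in WT. The order of the strains was as for PAM16, and none overlapped. The difference was -0.63 (SE 0.08, 95% interval -0.82 to -0.44, adjusted p = 0.028). The value of this gene fitted a stretch of 11 bp out of 395, so it may stand for a small part of the gene. Less input it was -0.65 (SE 0.11, adjusted p = 0.077), which did not pass. The neighbour STP22 was at -0.27 (adjusted p = 0.34).

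YMR194C-A had 692.1 and 702.9 in Pcf11-13, 436.6 and 377.0 in Pcf11-DNL, and 179.7 and 176.0 in WT. Both mutants lay above WT, and Pcf11-13 above Pcf11-DNL. The difference was -0.78 (SE 0.11, adjusted p = 0.044), and -0.72 less input (adjusted p = 0.027). The gene has no coordinates here and is therefore in none of the lists made from positions. MIN3 (YMR182W-A, chromosome XIII, 625811 to 625897), a gene of 87 bp, had 179.2 and 162.6 in Pcf11-13 against 118.2 and 117.9 in Pcf11-DNL, with 123.2 and 129.9 in WT. Pcf11-DNL was below WT there, and the difference of -0.53 (SE 0.08, adjusted p = 0.049) was -0.44 less input (adjusted p = 0.15). MIN3 lies 451 bp before SNR83, and its neighbours were below 0 too, with RGM1 at -0.38, SSO2 at -0.48 and ADD37 at -0.30, none of them called. Input over chromosome XIII stood at 0.137 and 0.042 above the library median (log2) in Pcf11-13 replicates 1 and 2, against 0.009 to 0.013 in the other 4 input libraries. Its part in the values of genes on this chromosome was not tested, beyond the subtraction of input.

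HIS4, whose product catalyses several steps of histidine synthesis, is on chromosome III (YCL030C, 65934 to 68333, minus strand). Coverage was 335.7 and 342.3 in Pcf11-13, 206.1 and 214.4 in Pcf11-DNL, and 169.8 and 162.9 in WT. The mutants did not overlap, and Pcf11-DNL lay between the others. The difference was -0.69 (SE 0.08, 95% interval -0.87 to -0.51, adjusted p = 0.02), and -0.68 less input (adjusted p = 0.0034). BIK1, which encodes a microtubule-binding protein and lies 265 bp before HIS4 on the same strand, was at -0.42 (SE 0.07, adjusted p = 0.11). RRP7, after HIS4, was at 0.01. The 6 other histidine synthesis genes ranged from -0.31 to 0.14, and 0 of them were called.

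YKL102C (chromosome XI, 248062 to 248367, minus strand) is a short gene of no stated function here. It had 156.4 and 146.7 in Pcf11-13, 101.9 and 104.0 in Pcf11-DNL, and 98.52 and 95.33 in WT. Pcf11-DNL lay near WT and Pcf11-13 above both. The difference was -0.55 (SE 0.07, adjusted p = 0.025), and -0.55 less input (adjusted p = 0.038). The next genes on the same strand were below 0 without passing the test: APE1, a vacuolar aminopeptidase gene, was at -0.55 (SE 0.09, adjusted p = 0.094), and GFA1 beyond it at -0.32 (adjusted p = 0.34).

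Of the 4 genes called higher in Pcf11-DNL, SPS4 had the largest difference less input. It is a gene of sporulation (YOR313C, chromosome XV, 901858 to 902874), a programme that haploid cells in glucose do not run. Coverage was 34.85 and 37.51 in Pcf11-13, 77.43 and 78.74 in Pcf11-DNL, and 83.53 and 88.12 in WT. Pcf11-13 stood alone at the low end. The difference was 1.09 (SE 0.10, 95% interval 0.86 to 1.32, adjusted p = 0.0066), or 2.13-fold, and 1.04 less input (adjusted p = 7.8e-04). YOR314W, which starts 168 bp from the start of SPS4 and runs away from it, was at 0.70 (adjusted p = 0.24), and RPL20B on the other side at -0.03.

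HXT1, the low-affinity glucose transporter gene used at high glucose, is on chromosome VIII (YHR094C, 290913 to 292625). Coverage was 120.9 and 128.1 in Pcf11-13, 202.0 and 235.5 in Pcf11-DNL, and 322.3 and 293.8 in WT. The 3 strains did not overlap, and Pcf11-DNL lay between the others. The difference was 0.80 (SE 0.10, 95% interval 0.58 to 1.03, adjusted p = 0.021), or 1.75-fold, and 0.82 less input (adjusted p = 0.024). YDR269C, which has no coordinates here, had 106.2 and 100.7 in Pcf11-13, 159.6 and 152.5 in Pcf11-DNL, and 165.4 and 172.0 in WT. Its difference was 0.59 (SE 0.07, adjusted p = 0.021), and 0.53 less input (adjusted p = 0.02). The systematic name places it beside CCC2 (YDR270W), a copper-transporting ATPase gene, which was at 0.37 (adjusted p = 0.24). The libraries do not separate strands, so coverage of a gene and of an overlapping partner cannot be told apart.

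TOA2, the gene of the small subunit of the general factor TFIIA, differed in its DNA. It is on chromosome XI (YKL058W, 330166 to 330534). Pol II coverage was 156.3 and 159.6 in Pcf11-13, 313.6 and 297.1 in Pcf11-DNL, and 275.6 and 298.8 in WT. Input coverage was 152.3 and 146.0 in Pcf11-13, 272.7 and 276.6 in Pcf11-DNL, and 245.5 and 257.3 in WT. Pcf11-13 was the low strain in both. The Pol II difference was 0.95 (SE 0.09, adjusted p = 0.0066), the input difference 0.88 (SE 0.03, adjusted p = 1.5e-05), and the Pol II difference less input 0.07 (SE 0.08, adjusted p = 0.73). The 2 genes before it also differed in input, MPE1 by 0.46 and FBA1 by 0.48, with Pol II differences of 0.10 and 0.31 that were not called.

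**Figure D2:**
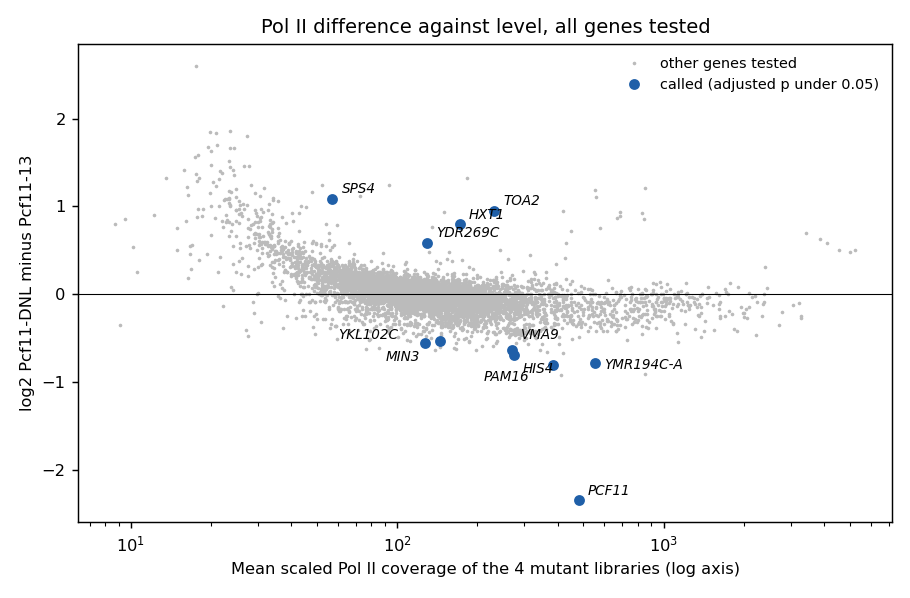
Log2 difference in Pol II (Pcf11-DNL minus Pcf11-13) against mean scaled coverage of the 4 mutant libraries, on a log axis, for the 6642 genes tested. The 11 called genes are named, and at low coverage the spread is wide and lies mostly above 0.

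In all, input DNA differed at 17 of 6643 genes (0.256%), with 10 higher in Pcf11-DNL (0.151%) and 7 lower (0.105%), and at 379 genes at an unadjusted p under 0.05 (5.71%). PCF11 and TOA2 were the 2 that were also called in Pol II. The markers of the strain construction were among the lower ones. LEU2, the plasmid marker, stood at 4.11 and 4.03 times the median gene in Pcf11-13 input, at 3.32 and 3.27 in Pcf11-DNL and at 2.95 and 3.04 in WT. TRP1, the deletion marker, stood at 1.58 and 1.55 in Pcf11-13, at 0.99 and 1.04 in Pcf11-DNL and at 1.02 in both WT libraries. The Pol II differences of these genes were 0.18 for LEU2 and -0.25 for TRP1, and neither was called. YDR008C, the neighbour of TRP1 by its systematic name, had the largest input difference (-1.46, adjusted p = 8.4e-07).

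The higher ones in input included the CUP1 locus, whose tandem copies encode the copper metallothionein. Input over CUP1-2 was 670.3 and 691.5 in Pcf11-13 against 1152.0 and 1151.0 in Pcf11-DNL, and 1157.0 and 1122.0 in WT, a difference of 0.76 (adjusted p = 1.3e-05). Its Pol II difference was 0.94 (SE 0.17, adjusted p = 0.14), and 0.18 less input. CUP1-1 gave 0.75 in input and 0.89 in Pol II, but the copies are near-identical and their reads cannot be told apart. TSC13, of very long chain fatty acid synthesis, was at -0.45 in input and at -0.53 in Pol II (adjusted p = 0.15), which left -0.08. MHF1 and NTH1 were lower in input, at -0.61 and -0.31. These DNA differences belong to the strains, so a difference of the alleles and another difference of the strains cannot be told apart at such genes.

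**Figure D3:**
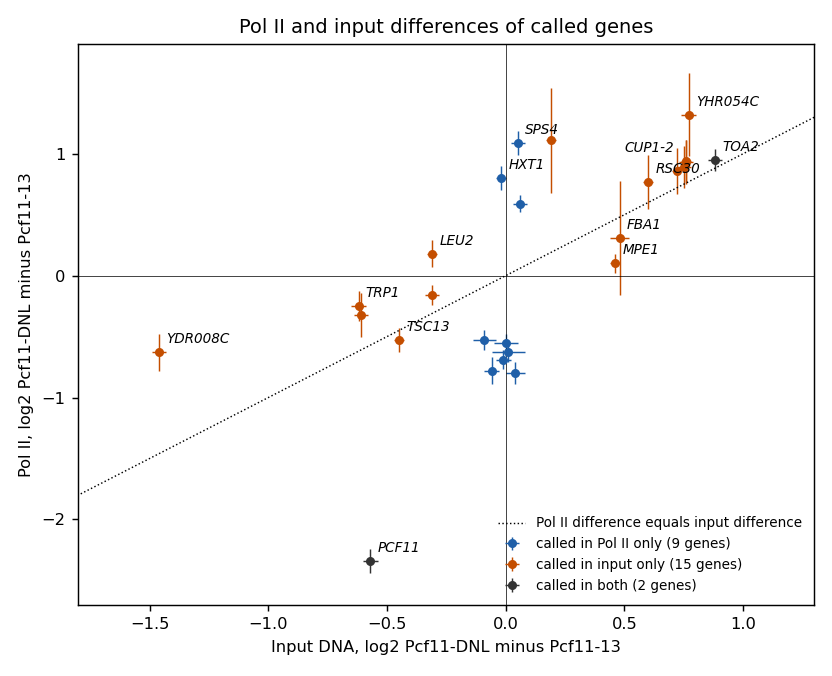
Log2 difference (Pcf11-DNL minus Pcf11-13) in Pol II against that in input DNA for the genes called in either, with bars of 1 SE. The 9 genes called in Pol II only lie near 0 on the input axis, TOA2 lies within 1 SE of the dotted line of equal differences, and PCF11 lies below it.

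When input was taken off in a fit of all 12 libraries, 11 of 6641 genes passed (0.166%), with 3 higher (0.0452%) and 8 lower (0.12%) in Pcf11-DNL and 709 at an unadjusted p under 0.05 (10.7%). Of the 11 genes called without input, 8 passed again, the exceptions being TOA2, VMA9 and MIN3. The 3 others were lower in Pcf11-DNL. TMN2, a gene of endosomal membrane proteins (YDR107C), had Pol II of 189.3 and 205.3 in Pcf11-13 against 135.6 and 133.0 in Pcf11-DNL, and -0.56 less input (SE 0.08, adjusted p = 0.036). PPX1, the exopolyphosphatase gene (YHR201C), had 217.1 and 220.4 in Pcf11-13 against 164.3 and 159.5 in Pcf11-DNL, and -0.45 less input (SE 0.06, adjusted p = 0.03). RGS2, a regulator gene of G-protein signalling (YOR107W), had 244.4 and 255.8 in Pcf11-13 against 185.2 and 183.7 in Pcf11-DNL, and -0.45 less input (SE 0.06, adjusted p = 0.027). At these 3 genes the WT libraries, from 116.8 to 129.2, from 160.5 to 163.9 and from 164.2 to 165.2, lay below both Pcf11-13 libraries.

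Genes next to snoRNA genes had a median Pol II difference below that of all genes, with most members below 0. Those on the opposite strand that run towards the end of a snoRNA gene and lie within 1000 bp of it had a median difference of -0.29, against 0 over all genes tested. All 28 tested were below 0, against 3243 of 6642 over all genes. Of the 28, 2 were called (PAM16 and VMA9), against 0.105% of all genes called lower. At 24 (85.7%) both Pcf11-DNL libraries lay below both Pcf11-13 libraries, against 26.7% of all genes. Both Pcf11-DNL libraries showed it, with medians of -0.20 in replicate 1 and -0.40 in replicate 2. With the 4 mutant libraries alone, 8 of the 28 were lower (28.6%, against 8.19% of all genes). These genes are densely transcribed, with a median WT Pol II over input of 1.69 (log2). When all genes were split into 10 equal groups by that measure, groups 9 and 10 had median levels of 0.89 and 2. The median differences of those groups were -0.08 and -0.11, and 43.1% and 33.5% of their genes were wholly lower in Pcf11-DNL. The part of level in the list's values was not tested. KTR2, a mannosyltransferase gene 61 bp from SNR42, had 378.2 and 372.1 in Pcf11-13, 276.0 and 284.8 in Pcf11-DNL, and 229.7 and 257.6 in WT (-0.42, SE 0.10, adjusted p = 0.2). SSO2, a gene of secretory membrane fusion 266 bp from SNR83, was at -0.48 (SE 0.11, adjusted p = 0.2). ODC2, a mitochondrial carrier gene 72 bp from SNR35, was at -0.42 (SE 0.14, adjusted p = 0.35).

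On the same strand, the genes that follow a snoRNA gene within 1000 bp had a median difference of -0.17. Of 28 tested, 25 were below 0, 0 were called, and at 18 (64.3%, against 26.7% of all genes) the mutants did not overlap in that direction. The medians were -0.12 and -0.19 in Pcf11-DNL replicates 1 and 2, and 10 of the 28 were lower with the 4 mutant libraries alone (35.7%, against 8.19% of all genes). The median WT Pol II over input of the list was 0.34 (log2), near the 0.31 of group 7 of 10 by that measure. Group 7 had a median difference of -0.04, with 37.8% of genes wholly lower in Pcf11-DNL. USE1, a membrane fusion gene 286 bp after SNR82, had 252.7 and 253.9 in Pcf11-13, 168.7 and 186.7 in Pcf11-DNL, and 157.7 and 123.7 in WT (-0.51, SE 0.12, adjusted p = 0.2). YDR042C, 398 bp after SNR47, had 197.5 and 223.5 in Pcf11-13, 160.5 and 152.8 in Pcf11-DNL, and 98.04 and 79.82 in WT (-0.42, SE 0.11, adjusted p = 0.27). At YDR042C both mutants lay above WT and did not overlap with each other. CTO1, 193 bp after SNR33, was at -0.36 (SE 0.07, adjusted p = 0.18), and HEM4, of haem synthesis and 210 bp after SNR5, at -0.32 (SE 0.08, adjusted p = 0.24). PMD1 falls in both lists and was at -0.31 (adjusted p = 0.29). Genes on the other side, before the start of a snoRNA gene, had a median of -0.08 over 52 members, and 0 after quantile normalization. MIN3 was called, against 0.105% of all genes called lower. At 20 (38.5%, against 26.7% of all genes) the mutants did not overlap in that direction. With the 4 mutant libraries alone, 8 were lower (15.4%, against 8.19%). The list's WT level of 0.49 was near the 0.52 of group 8, which had a median difference of -0.07, with 45.6% of genes wholly lower.

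**Figure D4:**
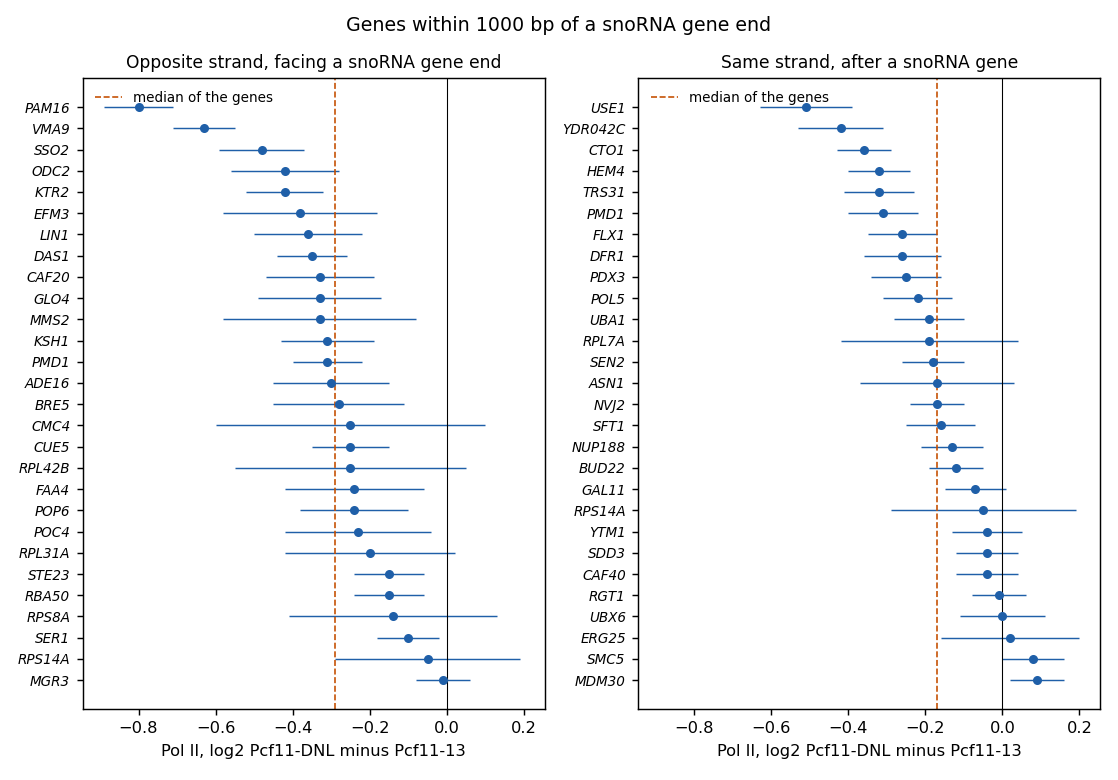
Log2 difference in Pol II (Pcf11-DNL minus Pcf11-13) for genes within 1000 bp of a snoRNA gene end, with bars of 1 SE and the median as a dashed line. On the opposite strand, left, all 28 genes are below 0 with a median of -0.29, and on the same strand, right, 25 of 28 are, with a median of -0.17.

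Genes in tandem with other protein genes had medians near 0. The 1823 genes that follow another gene on the same strand within 500 bp had a median of 0.01 with 1 called, and 168 of them that follow a densely transcribed gene had -0.01 with 0 called. The 2581 genes with a convergent neighbour within 500 bp had a median of 0.01 and 2 called, 1 higher (TOA2) and 1 lower (PCF11). PCF11 is in this list by its reference position, although the labels place it on a plasmid, and TOA2 differed in input as well. Over all genes tested the median was 0 and 0.166% were called. These lists were not tested against those next to snoRNA genes.

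Attenuated genes also had a median below 0. The 11 genes listed as limited by early Nrd1-dependent termination had a median of -0.29, and 11 were below 0. Only PCF11 was called, against 0.105% of all genes called lower. At 10 the mutants did not overlap in that direction, against 26.7% of all genes. The medians of Pcf11-DNL replicates 1 and 2 were -0.26 and -0.34, and 9 of the 11 were lower with the 4 mutant libraries alone (81.8%, against 8.19% of all genes). PCF11 is within each of these counts, although the plasmids supply it as different alleles and its input differed by -0.57. The median WT Pol II over input of the list was 0.88 (log2), near the 0.89 of group 9 of 10. Group 9 had a median difference of -0.08, with 43.1% of genes wholly lower. URA2, which opens pyrimidine synthesis, had 549.6 and 512.4 in Pcf11-13, 383.8 and 359.2 in Pcf11-DNL, and 238.3 and 296.7 in WT (-0.51, SE 0.13, adjusted p = 0.25). NRD1 had 538.4 and 528.6 in Pcf11-13, 446.6 and 395.9 in Pcf11-DNL, and 355.0 and 449.7 in WT (-0.34, SE 0.14, adjusted p = 0.43). At URA2 the 3 strains did not overlap, while at NRD1 Pcf11-DNL overlapped with WT. ADE12 of purine synthesis was at -0.29 (adjusted p = 0.3) and IMD2 of guanine nucleotide synthesis at -0.28 (adjusted p = 0.4). SER3 of serine synthesis, a member of the list of threonine, serine and homoserine metabolism, was at -0.34 (adjusted p = 0.3).

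Arginine synthesis genes had a median of -0.34, with 8 of 9 below 0, 0 called, and 8 at which the mutants did not overlap in that direction, against 26.7% of all genes. The medians were -0.22 and -0.45 in Pcf11-DNL replicates 1 and 2, and 7 of the 9 were lower with the 4 mutant libraries alone, against 8.19% of all genes. ARG1, of argininosuccinate synthesis, had 291.1 and 247.5 in Pcf11-13, 203.0 and 190.8 in Pcf11-DNL, and 169.1 and 181.7 in WT (-0.45, SE 0.10, adjusted p = 0.2). Pcf11-DNL lay between the other strains there. ARG3 and ARG4, of the steps before and after ARG1, were both at -0.37 (adjusted p = 0.41 and 0.3). Purine synthesis genes had a median of -0.16 with 14 of 14 below 0. Genes for lysine, leucine, isoleucine and valine had -0.11 with 17 of 18 below 0, and those for tryptophan and other aromatic amino acids -0.15 with 11 of 13 below 0, and 0 genes of these 3 lists were called. LEU4, of the leucine pathway, was at -0.28 (adjusted p = 0.34). Median WT Pol II over input (log2) was 0.33 for arginine, 0.44 for purine, 0.79 for lysine to valine and 0.72 for aromatic genes. Groups 7, 8 and 9 of 10 by that measure, at 0.31, 0.52 and 0.89, had median differences of -0.04, -0.07 and -0.08. The part of level in these lists was not tested.

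CHA1, the serine and threonine deaminase gene, had a value of the other sign. It had 40.73 and 49.42 in Pcf11-13, 82.28 and 118.6 in Pcf11-DNL, and 156.8 and 102.1 in WT. Both other strains lay above Pcf11-13, and the spread within each was wide, so that the difference of 1.12 (SE 0.22, adjusted p = 0.15) did not pass. URA1, of pyrimidine synthesis, had 360.2 and 329.1 in Pcf11-13 against 545.8 and 489.1 in Pcf11-DNL, with 501.5 and 477.6 in WT (0.58, SE 0.12, adjusted p = 0.18). EHT1, of ethyl ester synthesis, was at 0.47 (adjusted p = 0.094) and TPO1, a polyamine transporter gene, at 0.48 (adjusted p = 0.11).

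Genes of metal uptake had a median above 0. The 20 iron and copper uptake genes had a median of 0.14 (-0.19 when scaled on meiosis and sporulation genes, against -0.33 for all genes), 17 were above 0, 0 were called, and 6 were higher with the 4 mutant libraries alone (30%, against 2.39% of all genes). FRE1, the ferric and cupric reductase gene, had 290.6 and 259.8 in Pcf11-13, 744.2 and 380.3 in Pcf11-DNL, and 572.1 and 951.8 in WT (0.95, SE 0.31, adjusted p = 0.33). CTR1, the high-affinity copper transporter gene, had 471.2 and 371.1 in Pcf11-13, 926.6 and 542.9 in Pcf11-DNL, and 659.0 and 1074.0 in WT (0.76, SE 0.30, adjusted p = 0.41). Both libraries of Pcf11-DNL lay above Pcf11-13 at each, but they differed strongly from one another. FET3, of iron oxidation, and SIT1, a siderophore transporter gene, were at 0.45 (adjusted p = 0.5) and 0.39 (adjusted p = 0.42).

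Hexose transport and glucose sensing genes had a median of 0.22, with 18 of 22 above 0, against 3399 of 6642 over all genes. HXT1 was called, against 0.0602% of all genes called higher. Scaled on meiosis and sporulation genes the median was -0.11, in a scaling that lowered the median of all genes as well. Many of these transporters have near-identical sequences, so that reads may be shared among them. HXT2, a transporter gene of intermediate glucose, was at the other end with 938.1 and 774.2 in Pcf11-13 against 737.9 and 476.8 in Pcf11-DNL (-0.52, SE 0.31, adjusted p = 0.52). WT spanned 428.4 to 810.1 there and overlapped both mutants. RGT2, a glucose sensor gene, was at -0.24 (SE 0.07, adjusted p = 0.29).

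Meiosis and MAT a genes, which are weakly transcribed here, had medians above 0, mostly through replicate 2. The 40 meiosis and sporulation genes had a median of 0.31 (0.04 after quantile normalization), with 37 above 0, against 3399 of 6642 over all genes. SPS4 was called, against 0.0602% of all genes called higher. The medians of the list were 0.12 in Pcf11-DNL replicate 1 and 0.52 in replicate 2. Scaling the libraries on these same genes gave -0.02, but that scaling sets their median near 0 in advance and lowers the median of all genes. The 7 MAT a genes, which are repressed in these MAT alpha cells, had 0.26 with 7 above 0 (0.07 after quantile normalization and -0.07 when scaled on meiosis and sporulation genes), and 0.12 and 0.59 by replicate. Their WT level of -1.43 was also near that of group 1. CSM4, of meiotic chromosome movement, had 26.02 and 24.59 in Pcf11-13 against 38.78 and 57.82 in Pcf11-DNL, with 60.32 and 36.77 in WT (0.88, SE 0.31, adjusted p = 0.36). BAR1, the protease gene of a cells, was at 0.84 (SE 0.30, adjusted p = 0.37). CRR1, of spore wall assembly, had 44.11 and 42.29 in Pcf11-13, 85.16 and 66.94 in Pcf11-DNL, and 78.94 and 100.5 in WT (0.79, SE 0.15, adjusted p = 0.15). Stress and trehalose genes, also weakly transcribed in WT, had a median of -0.06 with 15 of 23 below 0 and 0 called, and -0.12 and 0.02 by replicate. The highest of them was HSP12 at 0.93 (SE 0.38, adjusted p = 0.43).

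Several lists of more densely transcribed genes had medians below 0, again mostly through replicate 2. The 138 ribosomal protein genes had a median of -0.09 (0.03 after quantile normalization), with 107 below 0, against 3243 of 6642 over all genes, and 0 called. Their medians were 0.05 in replicate 1 and -0.22 in replicate 2. Their median WT Pol II over input was 2.97 (log2), above the 2 of group 10, the highest by that measure. Group 10 had a median difference of -0.11, with 33.5% of genes wholly lower in Pcf11-DNL, against 23.2% of this list. Phosphate regulon genes had -0.32 with 16 of 16 below 0 and 0 called, and -0.07 and -0.56 by replicate. PHO89, a phosphate transporter gene, had 107.0 and 100.2 in Pcf11-13, 73.83 and 61.97 in Pcf11-DNL, and 65.35 and 132.5 in WT (-0.61, SE 0.26, adjusted p = 0.45). PHO11, an acid phosphatase gene, had 272.3 and 270.0 in Pcf11-13, 227.3 and 143.0 in Pcf11-DNL, and 169.2 and 348.2 in WT (-0.59, SE 0.31, adjusted p = 0.5). The range of WT overlapped both mutants at these genes. Glycolysis and fermentation genes had -0.21, cell wall genes -0.22 and proteasome genes -0.08 (0.07 after quantile normalization), with 0 called in each. Other densely transcribed lists were above 0, also with 0 called. Respiratory chain and ATP synthase genes were at 0.10 (-0.24 when scaled on meiosis and sporulation genes), the 79 ribosome biogenesis genes at 0.03 (-0.30 in that scaling) with 54 above 0, and the 9 pyrimidine synthesis genes at 0.09 (-0.24) with 5 above 0. That scaling lowered the median of all genes as well. The sign also turned without Pcf11-DNL replicate 1 for ribosome biogenesis (-0.04) and stress and trehalose genes (0.02), and without 1 Pcf11-13 library for ribosome biogenesis (-0.01) and pyrimidine synthesis genes (-0.02).

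**Figure D5:**
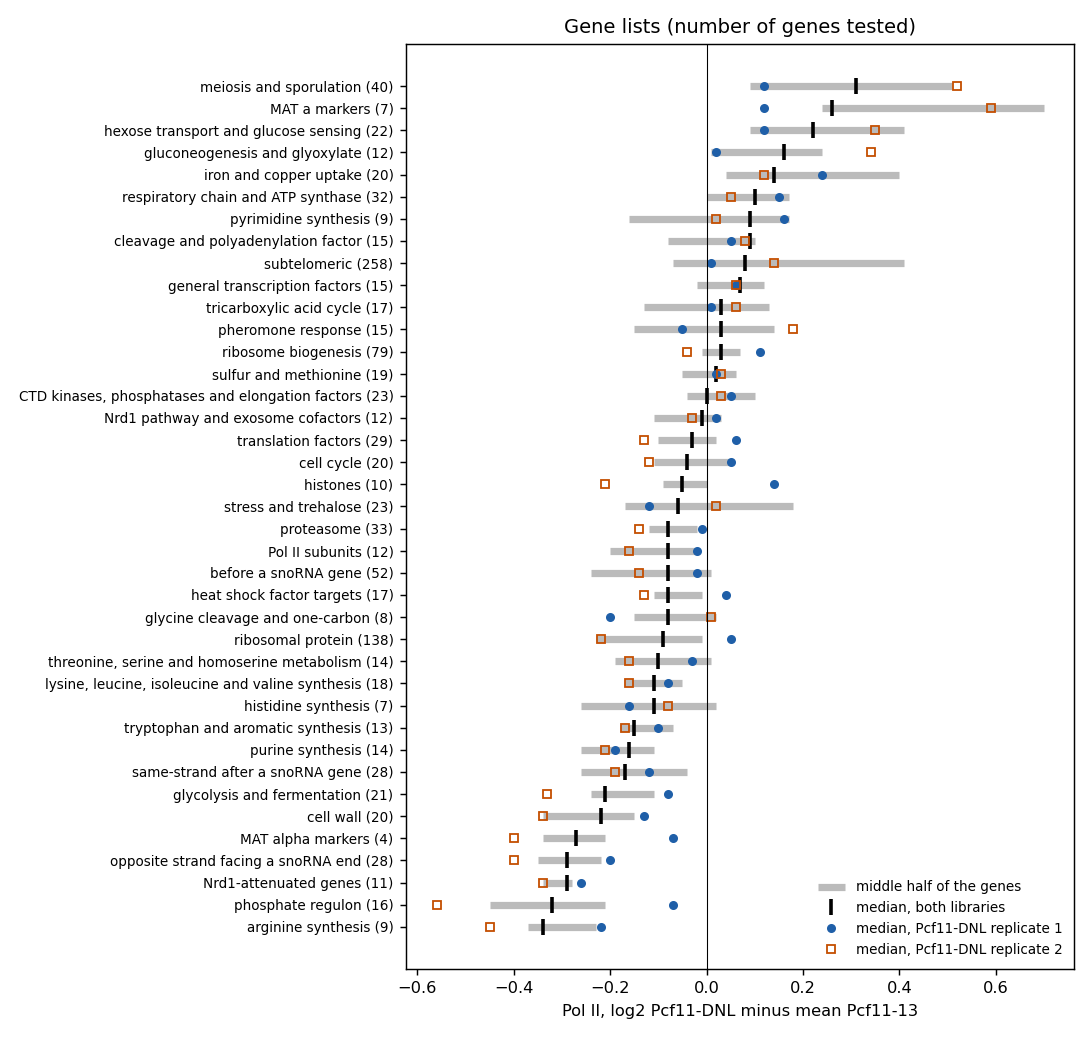
Median log2 difference in Pol II (Pcf11-DNL minus the mean of Pcf11-13) for the gene lists, with the interquartile range of each list's genes as a grey bar and the medians of the 2 Pcf11-DNL libraries as points. Both replicates lie below 0 for genes next to snoRNA genes and for attenuated genes. They also do so for other lists, among them arginine and purine synthesis, cell wall, glycolysis and phosphate genes. The replicates lie far apart for meiosis and sporulation, MAT a, phosphate and ribosomal protein genes.

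The difference also varied with level over all genes. When the genes were split into 10 equal groups by WT Pol II over input, the median difference between the mutants went from 0.32 in the lowest group to -0.11 in the highest. In the lowest group both Pcf11-DNL libraries lay above both Pcf11-13 libraries at 63.6% of genes, and in the highest below them at 33.5%. Against each Pcf11-13 library in turn, Pcf11-DNL replicate 2 ran from 0.52 and 0.55 in the lowest group to -0.24 and -0.20 in the highest, and replicate 1 from 0.10 and 0.14 to 0 and 0.03. Since Pcf11-DNL replicate 2 is one of the libraries of narrow range, its range moves with the difference at both ends, and its part in them was not tested beyond the values of replicate 1. Of the 11 called genes, 5 fell in group 8 counted from the lowest and 0 in the lowest.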

How the data were processed

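The deposited values are read coverage per gene, a signal whose mean differs between libraries and which was taken as not scaled to depth. They are not whole-number counts, so the depth in reads is unknown and no counting interval is given. Per the submitters' processing notes, the build was sacCer3 and the tools were deepTools 3.1.2, Trimmomatic 0.38 and BWA 0.7.17-r1188, with no roles stated. The way of averaging over a gene is not given in the sources used here. Of the 6650 genes deposited, 5976 were found by locus tag in the RefSeq table of the same assembly, the source of coordinates, names and 76 snoRNA genes. The libraries do not separate strands. No genome sequence was used here.

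From these values, coverage was divided by unweighted trimmed-mean (TMM) factors, trimming 30% of log ratios and 5% of levels. A gene was tested if 2 or more libraries reached a coverage of 10, and a pseudocount of 1 was added before taking log2, so differences of low genes are understated. Models with a trend of variance on level (limma 3.58.1, R 4.3.3) were fitted to the 6 Pol II libraries, to the 6 input libraries, and to all 12 for Pol II less input. The 3 strains share 1 estimate of spread, and every p is from limma with Benjamini-Hochberg adjustment over all genes tested, called at an adjusted p under 0.05. Replicates are described as biological, but whether cultures were grown separately is not stated, and then p-values measure only the spread between these libraries. The replicate numbers come from the sample titles and were not taken as pairs. The fit was also tested on simulated data.

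Genes named were taken from the called genes, the 10 with the smallest p higher and lower beyond them, up to 3 of each list, up to 10 called in input and in Pol II less input, the markers, and neighbours of called genes. KTR2, ODC2, USE1, YDR042C, HEM4, PMD1, FET3, SIT1, CTR1, HXT2, ARG3, ARG4, HSP12, RNA14, RNA15, MHF1, NTH1, FBA1, GFA1 and ADD37 fall outside this rule and were chosen after their values were seen. The rule takes more genes than are named, and which of them to name was decided with their values known. The comparison and the gene lists were chosen with earlier results of these data known. Lists are described by counts and medians, without a set test. Alternatives were other scalings, pseudocounts, filters and sets of libraries, a fit without trend, and a replicate block. A value was said to fit a short stretch when its product with a length of at most 300 bp was whole within 0.0006 per base in all libraries.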

Additional observations from a re-analysis of the deposited data

How the results depend on the processing

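Against 11 calls in Pol II, library totals gave 119 (20 higher, 99 lower), quantile normalization 5, scaling on meiosis and sporulation genes 31, no filter on low coverage 5, coverage of at least 50 in 2 libraries 46, the 4 mutant libraries alone 703, no mean-variance trend 2, and the fit without WT replicate 1 and Pcf11-DNL replicate 2, added after seeing the data, 404. Leaving out 1 library gave 1 to 679: 1 without either Pcf11-13 library, 20 and 21 without Pcf11-DNL replicate 1 or 2, and 674 and 679 without WT replicate 1 or 2. A strain left with 1 library is assumed to vary like the others. For Pol II less input, against 11, quantile normalization gave 50, scaling on meiosis and sporulation genes 38, coverage of at least 50 gave 18, the mutant libraries alone 54, and leaving out 1 library 1 to 44 (1 without either Pcf11-DNL library or Pcf11-13 replicate 1, 2 without Pcf11-13 replicate 2, 44 and 27 without WT replicate 1 or 2). For input, against 17, quantile normalization gave 10. The cause of these changes was not tested. The other alternatives, apart from the replicate block below, stayed within 1.5 times.

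With the replicate block, 20 genes were called in Pol II and 2 in Pol II less input. Deviations of same-numbered Pol II libraries had r = -0.07 between the mutants, -0.09 between WT and Pcf11-13 and -0.89 between WT and Pcf11-DNL across genes, so the numbers were not taken to pair the libraries. The last value is that of the strains holding the 2 narrow libraries, WT replicate 1 and Pcf11-DNL replicate 2, which deviated together.

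PCF11 was called in all 18 alternatives, at -2.67 to -2.21. The 10 other called genes kept their direction in all of them, and stayed called in 11 to 14. Among 77 genes examined, the sign turned at 6, none of them called in Pol II: with libraries scaled on meiosis and sporulation genes CLP1 was at -0.17, LEU2 at -0.15, MPE1 at -0.23, RNA15 at -0.27 and FBA1 at -0.03. This scaling also lowered the median of all genes. RNA14 was at 0.03 with library totals and 0.01 after quantile normalization, and from -0.04 to 0 with 1 library left out. RNA15 was at -0.01 without both narrow libraries, and from -0.01 to 0.12 with 1 library left out. Depth is unknown, so how far it limits low genes is unknown too.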
